A study of Sus scrofa with 20 samples.

Results

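LYVE1 and PECAM1 are marker genes of vessel walls, and their transcripts were followed in the ileal mucosa of 20 piglets, 1 array per piglet. Every probe set to which the platform annotation gives the symbol LYVE1 or PECAM1 was taken, which gave 5 probe sets of 2 genes, among 10069 probe sets of 6765 genes that carry a single symbol. The pair was chosen on expression values of these same arrays. Their levels and differences are therefore given as a description with standard errors and without a test.

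LYVE1 encodes a membrane receptor for hyaluronan, the long sugar polymer of the tissue matrix. It sits on the endothelium of lymphatic capillaries, which in the villus are the lacteals that carry absorbed fat, and on a class of resident macrophages. PECAM1, also called CD31, encodes an adhesion molecule at the junctions between endothelial cells of blood and lymphatic vessels, and is also carried by platelets and many leukocytes. In RNA of a whole tissue, fewer cells of a type and less RNA per cell cannot be told apart.

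All piglets were Landrace × Large white × Duroc crosses. Suckling piglets stayed with the sow, were kept away from the sow's feed and were sampled at 14 (S14D, n = 3), 21 (S21D, n = 4), 28 (S28D, n = 4) and 35 days (S35D, n = 3). Weaned piglets left the sow at 21 days, received a commercial weanling diet and were sampled at 28 (21W28D, n = 3) and 35 days (21W35D, n = 3). The paper states that these piglets came from litters of 4 sows, so some of them were littermates. The litter of each piglet was not given in the sources used here, and the small number of arrays limits the precision of every value. Values are gcRMA log2 values, in which 1 unit is a doubling, the lowest value on any array is 2.08 and the highest 16.41.

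The labels of 2 groups are in doubt. By correlation over all probe sets, the 21W35D mean was a closer match than the S28D mean for 3 of 3 arrays labelled S35D. The S28D mean was a closer match than the 21W35D mean for 2 of 3 arrays labelled 21W28D, and a closer match than the S35D mean for 2 of 3 arrays of 21W35D. A shared age would also give the first 2 of these counts under the deposited labels. In the last count, S28D shares neither age nor weaning with 21W35D under either labelling. These correlations therefore cannot tell the deposited and the exchanged labels apart. By the deposited labels, 1570 probe sets passed limma at an adjusted p under 0.05 between S28D and S35D, and 0 between S28D and 21W28D. The deposited labels are used throughout, and for LYVE1 the differences with both doubtful labels exchanged are given beside them, with a count for the other genes.

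LYVE1 was read by 1 probe set with signal in every array, Ssc.5047.1.A1_at. In S14D piglets its values were 7.37, 7.74 and 8.44 (7.85 ± 0.55, SD, n = 3). In S21D piglets they were 6.49, 6.09, 5.87 and 5.80 (6.06 ± 0.31, n = 4). In S28D piglets they were 6.28, 5.38, 5.76 and 6.06 (5.87 ± 0.39, n = 4). The S14D arrays were thus all higher than those of the following ages, while S21D and S28D arrays were intermingled. The arrays labelled S35D gave 7.64, 6.86 and 7.88 (7.46 ± 0.54, n = 3). The arrays labelled 21W28D gave 5.23, 5.61 and 5.65 (5.50 ± 0.23, n = 3). The 21W35D arrays gave 7.57, 7.49 and 7.46 (7.51 ± 0.05, n = 3). All arrays of S14D, S35D and 21W35D thus lay above all arrays of the other groups, a split drawn after the values were seen. The 9 arrays of S14D, S35D and 21W35D lay between 6.86 and 8.44, the other 11 arrays lay between 5.23 and 6.49, and the gap between both ranges was 0.37. Wider steps lay inside the upper range, from 7.88 to 8.44 and from 6.86 to 7.37. How many of all probe sets split in this way was not counted.

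PECAM1 was read by 2 probe sets with signal in every array, of which Ssc.6050.1.A1_at was the brighter. In S14D piglets its values were 9.67, 9.64 and 9.74 (9.69 ± 0.05, n = 3). In S21D piglets they were 9.37, 8.95, 8.80 and 8.72 (8.96 ± 0.29, n = 4). In S28D piglets they were 8.998, 8.41, 8.73 and 9.16 (8.82 ± 0.33, n = 4). The 3 S14D arrays were the 3 highest of all 20, and the S21D and S28D arrays covered much the same range. The arrays labelled S35D gave 9.18, 8.57 and 8.93 (8.89 ± 0.31, n = 3). The arrays labelled 21W28D gave 8.68, 9.27 and 9.37 (9.11 ± 0.37, n = 3). The 21W35D arrays gave 9.12, 8.53 and 9.19 (8.95 ± 0.36, n = 3). From 21 days on, every group overlapped every other on this PECAM1 probe set.

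**Figure D1:**
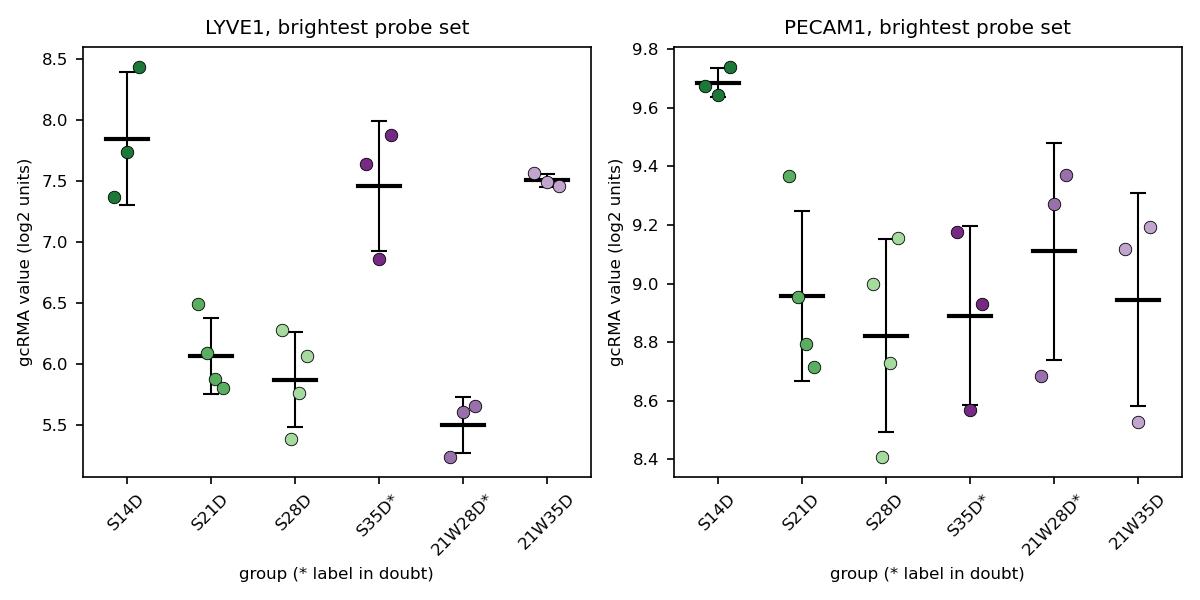
gcRMA values (y axis, log2 units, axes not starting at 0) of the brightest LYVE1 and PECAM1 probe sets by group (x axis). Points are single arrays, horizontal bars group means and whiskers 1 SD, and an asterisk marks a label in doubt. LYVE1 is high in S14D (mean 7.85), S35D (7.46) and 21W35D (7.51) and low in the other groups, while PECAM1 is high in S14D (mean 9.69) and between 8.82 and 9.11 on average elsewhere.

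Between S14D and S21D both genes were lower in the older piglets. LYVE1 was lower by 3.45-fold in S21D (difference of group means -1.79, SE 0.29), and the closest arrays of both groups were 0.88 apart. PECAM1 was lower by 1.66-fold (difference -0.73, SE 0.23), with the closest arrays 0.28 apart. For both genes the groups did not overlap, as was the case for 27.9% of all 23999 probe sets in this comparison. S14D was also above S28D and 21W28D for both genes. The S14D minus S28D difference was 1.98 for LYVE1 and 0.86 for PECAM1, and the 21W28D minus S14D difference was -2.35 and -0.58. Groups of these pairs did not overlap for 27.3% and 24.3% of all probe sets. The S14D arrays were not separate in LYVE1 from those labelled S35D (difference S14D minus S35D 0.39) or from 21W35D (21W35D minus S14D -0.34). In PECAM1 they were separate from both, with differences of 0.80 and -0.74. Such separation was seen for 20.6% of probe sets against S35D and for 16.4% against 21W35D.

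Between S21D and S28D neither gene differed by more than its standard error. The S28D minus S21D difference was -0.19 (SE 0.26) for LYVE1 and -0.14 (SE 0.21) for PECAM1. Groups overlapped for both, while 1.18% of all probe sets did not overlap. This was also the comparison with the fewest separate probe sets of the 7 made by age or weaning. It was the one with the most arrays, and larger groups are less often fully separate. Shares without overlap are therefore not directly comparable between comparisons of unlike group size.

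Between S28D and the arrays labelled S35D the brightest probe sets of the 2 genes parted, which their dimmer probe sets, given below, did not share. LYVE1 was 3.01-fold higher in the arrays labelled S35D (difference 1.59, SE 0.29), with the closest arrays 0.58 apart, while the PECAM1 difference was 0.07 (SE 0.23) with overlapping arrays. Groups did not overlap for 21.9% of all probe sets. LYVE1 was also lower in S21D than in the arrays labelled S35D (S21D minus S35D -1.40), a pair in which 23.7% of probe sets did not overlap, while the PECAM1 difference was 0.07 with overlap. With both doubtful labels exchanged, the LYVE1 difference between S35D and S28D became -0.37. Without replicate 3 of the arrays labelled S35D, which stood apart in a smooth muscle score at 2.62, the LYVE1 difference was 1.38.

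By the deposited labels, LYVE1 had its lowest group mean at 28 days of age, 7 days after weaning. The arrays labelled 21W28D were below S21D by a difference of -0.57 (SE 0.29) with the closest arrays 0.15 apart, as against 3.05% of all probe sets without overlap. Against S28D of the same age the LYVE1 difference was -0.37 (SE 0.29) and the arrays overlapped, while 1.43% of probe sets did not. PECAM1, by its brighter probe set, differed by 0.15 (SE 0.23) from S21D and by 0.29 (SE 0.23) from S28D, with overlap in both. With exchanged labels, the LYVE1 differences became 1.40 from S21D and 1.59 from S28D.

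At 35 days of age, 14 days after weaning, piglets labelled as suckling and as weaned differed in neither gene by more than its standard error. This does not show that they were equal, and it holds for the deposited labels only. The 21W35D minus S35D difference was 0.05 (SE 0.31) for LYVE1 and 0.06 (SE 0.25) for PECAM1, with overlapping arrays in both, whereas 6.14% of probe sets did not overlap. Within weaned piglets, LYVE1 was 4.03-fold higher in 21W35D than in the arrays labelled 21W28D (difference 2.01, SE 0.31), with the closest arrays 1.81 apart. The PECAM1 difference was -0.16 (SE 0.25) with overlap, and 9.61% of probe sets had groups without overlap. The arrays labelled 21W28D were likewise below those labelled S35D in LYVE1 (21W28D minus S35D -1.96) and overlapped with them in PECAM1 (0.22), while 20.5% of probe sets did not overlap. With exchanged labels, the LYVE1 difference between 21W35D and S35D became 2.01 and that between 21W35D and 21W28D became 0.05.

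Against suckling groups with undoubted labels, 21W35D was higher in LYVE1 than S21D (difference 1.44) and S28D (difference 1.64), without overlap in either. Separation was seen for 11.6% and 10.6% of all probe sets in these pairs. The PECAM1 differences were -0.01 and 0.12 on the brighter probe set, with overlap. By the deposited labels the high LYVE1 arrays after 14 days were those of 35 days, suckling and weaned. With exchanged labels they would be those of weaned piglets, at 28 and 35 days. Which labels are right was not tested, and the values of S14D, S21D, S28D and 21W35D do not depend on them.

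**Figure D2:**
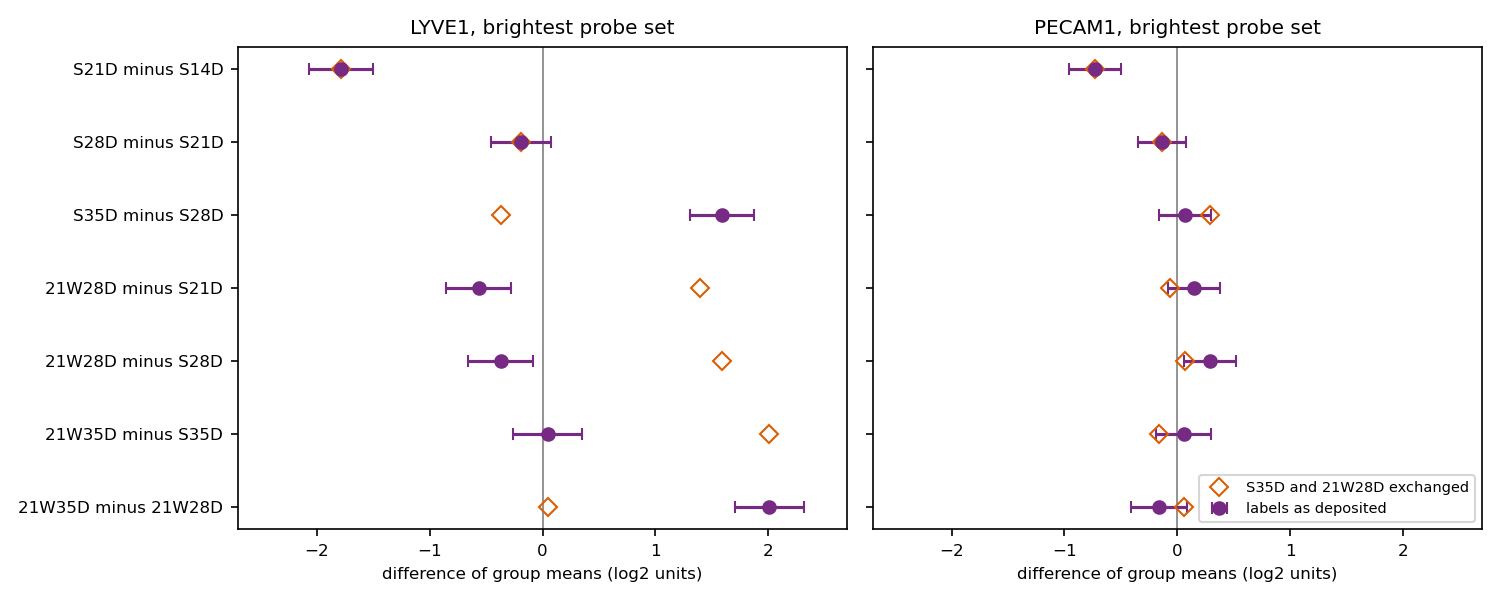
Differences of group means (x axis, log2 units) of the brightest LYVE1 and PECAM1 probe sets for 7 comparisons (y axis). Filled circles with bars are differences by the deposited labels with 1 standard error, and open diamonds are differences with both doubtful labels exchanged. LYVE1 goes from 1.59 to -0.37 between S35D and S28D and from 2.01 to 0.05 between 21W35D and 21W28D when labels are exchanged, while the S21D minus S14D differences of both genes (-1.79 and -0.73) stay as they are.

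By group mean, LYVE1 ran in the order S14D, 21W35D, S35D, S21D, S28D and 21W28D. Among neighbours in this order, S35D and S21D did not overlap, and the arrays of every other neighbouring pair did. The PECAM1 order was S14D, 21W28D, S21D, 21W35D, S35D and S28D, in which the step from S14D to 21W28D was the single one without overlap.

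The difference between LYVE1 and PECAM1 within each array cancels what raises or lowers both together. Its size depends on the probes, so that its change between groups is the quantity to read. It was -1.84 ± 0.51 in S14D, -2.90 ± 0.03 in S21D and -2.95 ± 0.16 in S28D. It was -1.43 ± 0.34 in the arrays labelled S35D and -3.61 ± 0.14 in the arrays labelled 21W28D. In 21W35D it was -1.44 ± 0.36. LYVE1 was thus higher relative to PECAM1 in the same 3 groups in which it was high by itself. The S14D arrays, at -2.31 to -1.30, lay above all S21D and S28D arrays, of which the highest was -2.72. The arrays labelled 21W28D, from -3.72 to -3.45, lay below all the others.

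The remaining probe sets of both genes were dimmer and told less. LYVE1 probe set Ssc.17343.1.S1_at was within 1 unit of the lowest value in 16 arrays and reached 4 log2 units in 1 array. It gave 3.19, 3.61 and 5.21 in S14D, 3.05, 3.89 and 2.51 in 21W35D, and between 2.40 and 2.88 in every other array, including the arrays labelled S35D. Its S21D minus S14D difference was -1.52 (SE 0.37), with the same sign as the brighter probe set, while its S35D minus S28D difference was 0.20 (SE 0.37) with overlapping arrays. The last LYVE1 probe set, Ssc.17343.1.A1_at, stood at the lowest value in 18 arrays and reached at most 2.10. Filtering on at least 4 log2 units in 3 or more arrays would keep 3 of the 5 probe sets.

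The other PECAM1 probe set, Ssc.14558.1.S1_at, lay between 4.78 and 5.98 and did not single out S14D. Its group means were 5.26 in S14D, 4.98 in S21D, 4.96 in S28D, 5.38 in S35D, 5.37 in 21W28D and 5.29 in 21W35D. The S21D minus S14D difference was -0.28 (SE 0.22) with overlapping arrays. All arrays of S14D, S35D, 21W28D and 21W35D lay above all of S28D by a gap of 0.08, and S21D overlapped with S28D. The value 5.08 was shared by 5 arrays and was the lowest of each of these 4 groups. Groups did not overlap with S28D for 27.3% of all probe sets in S14D, 21.9% in S35D, 1.43% in 21W28D and 10.6% in 21W35D. The difference from S28D was 0.42 (SE 0.22) in S35D, with the sign of LYVE1, and 0.40 (SE 0.22) in 21W28D. The brighter PECAM1 probe set overlapped in both pairs. Both PECAM1 probe sets had the same sign between S14D and S21D, and the brighter alone separated these groups.

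Other markers of lymphatic endothelium were mostly not read. Of the lymphatic list, 4 genes other than LYVE1 had a probe set, and PDPN, the podoplanin of lymphatic endothelium and of stromal cells, was the one that reached 4 log2 units in 3 or more arrays. Neither PROX1, the transcription factor of lymphatic identity, nor FLT4, the receptor of VEGFC, had a probe set by that symbol, so that the lymphatic label of LYVE1 was not checked against its defining markers. CCL21, the chemokine of lymphatic vessels, reached at most 3.18. PDPN differed by 0.28 between S21D and S14D (SE 0.33, limma adjusted p = 0.754) and by -0.60 between S35D and S28D (SE 0.33, limma adjusted p = 0.292). None of these 4 genes passed limma at an adjusted p under 0.05 in any comparison, and 1 passed without adjustment, lower in S21D than in S14D.

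Of the vascular list, 28 genes other than PECAM1 had a probe set, and 14 reached 4 log2 units in 3 or more arrays. KDR, the main VEGF receptor of endothelium, lay at 2.08 on every array, ENG reached at most 3.15 and CD34 at most 2.85, so the endothelial label of PECAM1 rests on the other markers. Between S14D and S21D, 4 of the 28 genes passed limma at an adjusted p under 0.05, 1 higher and 3 lower, against 14.9% of all probe sets, and 5 were higher and 5 lower without adjustment. The median difference of the list was 0.00, as over all probe sets, and 0.59 over the 14 brighter genes, of which 9 were above 0 and 5 below. ICAM2, an adhesion molecule of endothelium and leukocytes, rose by 1.68 (SE 0.46, adjusted p = 0.0264). ERG, a transcription factor of endothelium, fell by 0.59 (SE 0.17, adjusted p = 0.0337), in the direction of PECAM1. ECSCR, an endothelial surface protein, fell by 1.67 (SE 0.29, adjusted p = 0.0026) and GJA4, a connexin of arterial endothelium, fell by 1.01 (SE 0.10, adjusted p = 2.21e-05), but ECSCR reached 4 log2 units in 1 array and GJA4 in none.

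CDH5, the cadherin of endothelial junctions and partner of PECAM1 there, was 8.43 in S14D and 7.26 in S21D (difference -1.17, SE 0.40, limma adjusted p = 0.0613). TEK, the angiopoietin receptor, differed by -0.81 (SE 0.30, adjusted p = 0.0841). Neither passed. Groups did not overlap in either gene, as was so for 27.9% of all probe sets in this comparison. ICAM2 was also without overlap, in the opposite direction. VWF, the clotting factor stored in endothelium, differed by -0.29 (SE 0.37, adjusted p = 0.804). Between S28D and the arrays labelled S35D none of the 28 genes passed, against 6.54% of all probe sets, with 2 higher and 4 lower without adjustment. Of the 14 brighter genes, 3 were above 0 and 11 below, with a median of -0.69, opposite in sign to LYVE1. CDH5 differed there by 0.79 (SE 0.40, adjusted p = 0.244), ERG by 0.17 (SE 0.17, adjusted p = 0.686), TEK by -0.12 (SE 0.30, adjusted p = 1) and VWF by -0.16 (SE 0.37, adjusted p = 1).

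In the other comparisons no lymphatic or vascular gene passed limma after adjustment. Without adjustment 1 vascular gene was higher in 21W35D than in the arrays labelled S35D, 1 was higher in 21W35D than in those labelled 21W28D and 1 differed in the change of the weaning effect, against 0 in the rest. The share of all probe sets that passed was itself 0.00417% between S21D and S28D, 0.0458% between S35D and 21W35D, 0.0792% between 21W28D and 21W35D and 0% for 21W28D against S21D, against S28D and for the change of the weaning effect between 28 and 35 days.

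**Figure D3:**
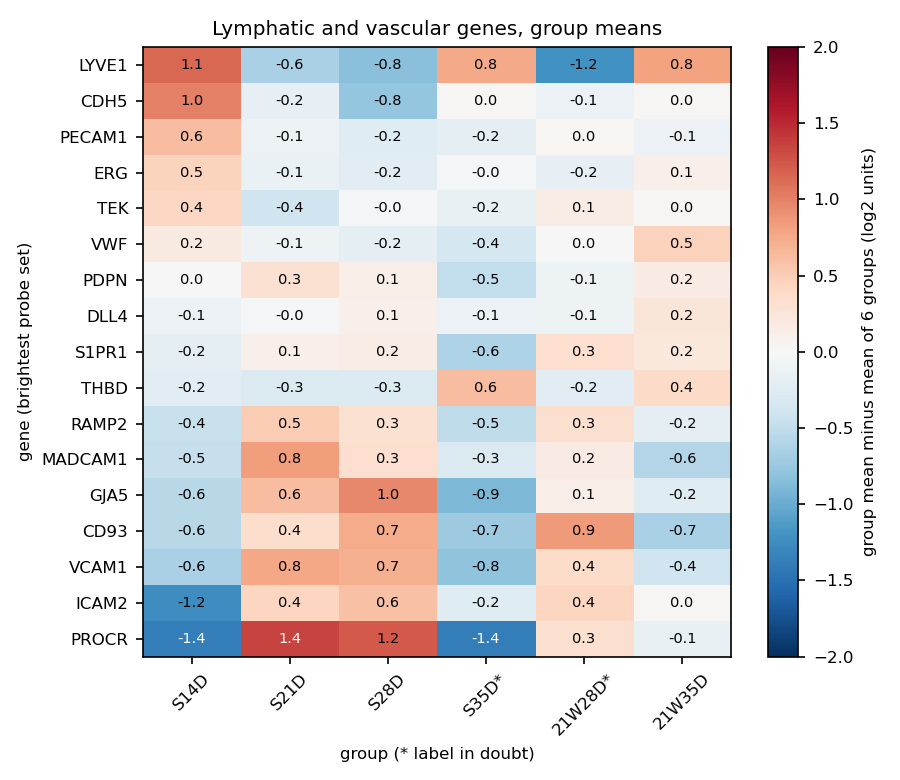
Group means of LYVE1, PECAM1 and the 15 other lymphatic and vascular genes that reached 4 log2 units in 3 or more arrays (rows), minus the mean of the 6 groups, in log2 units (numbers and colour), by group (columns, an asterisk marks a label in doubt). CDH5, PECAM1, ERG and TEK have their highest value in S14D, as LYVE1 has, while 9 of the 14 vascular genes other than PECAM1 are higher in S21D than in S14D and 11 are lower in S35D than in S28D.

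Genes of hyaluronan handling were examined because LYVE1 binds hyaluronan. Of 10 measured genes, 7 reached 4 log2 units in 3 or more arrays. Between S28D and the arrays labelled S35D, HYAL1, an enzyme that cuts hyaluronan, rose by 2.66 (SE 0.67, limma adjusted p = 0.0338) and TMEM2, a cell-surface protein known for cutting hyaluronan, rose by 0.78 (SE 0.19, adjusted p = 0.0298), both in the direction of LYVE1. With both doubtful labels exchanged, these differences would be -0.24 (SE 0.67) for HYAL1 and 0.07 (SE 0.19) for TMEM2. HYAL1 and TMEM2 were 2 of the 10 genes, against 6.54% of all probe sets called in this comparison. Over all lists, 19 genes passed between S28D and S35D, 11 of them interferon response genes. Of the 19, 14 had the opposite sign with exchanged labels. The exchanged comparison is the deposited 21W28D minus S28D, in which 0 of all probe sets passed, so that no list gene could pass it. Between S14D and S21D, HMMR, a hyaluronan-binding protein also of the mitotic spindle, rose by 2.12 (SE 0.68, adjusted p = 0.0491), opposite to LYVE1. No other of the 10 genes passed, against 14.9% of all probe sets. HYAL1 averaged 6.37 in S14D, 5.13 in S21D, 4.62 in S28D, 7.28 in S35D, 4.39 in 21W28D and 6.44 in 21W35D, so its 3 highest group means were those of the 3 groups high in LYVE1. The mean of the 7 genes, centred over all arrays, was 0.20 to 0.24 in S14D, 0.29 to 0.47 in the arrays labelled S35D and -0.18 to 0.28 in 21W35D, and -0.56 to 0.14 in the other groups.

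Of 8 measured genes of VEGF and angiopoietin signalling, 5 reached 4 log2 units in 3 or more arrays. ANGPT1, a TEK ligand, fell by 2.26 from S14D to S21D (SE 0.37, limma adjusted p = 0.00163), from 4.40 to 2.14, which is near the lowest value. No other of the 8 genes passed there, against 14.9% of all probe sets. From S28D to the arrays labelled S35D, the vessel growth factors VEGFA and VEGFB fell by 0.67 (SE 0.15, adjusted p = 0.0236) and 1.02 (SE 0.26, adjusted p = 0.0354), while LYVE1 was higher. These were 2 of the 8 genes, against 6.54% of all probe sets. Of 10 measured signalling and binding partners of PECAM1, 7 reached 4 log2 units in 3 or more arrays. Between S14D and S21D, CD38, a ligand of PECAM1, rose by 1.82 (SE 0.44, adjusted p = 0.0154) and the kinase LYN rose by 0.69 (SE 0.18, adjusted p = 0.0198). Beta-catenin, CTNNB1, fell by 0.53 (SE 0.10, adjusted p = 0.0044). Thus 2 of these 10 genes rose and 1 fell, against 14.9% of all probe sets in either direction. From S28D to the arrays labelled S35D, JUP, the catenin plakoglobin, rose by 1.41 (SE 0.29, adjusted p = 0.0181) but reached 4 log2 units in 2 arrays. No other of the 10 partners passed there, against 6.54% of all probe sets.

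Markers of other cells that can carry LYVE1 or PECAM1 were read beside them. Of 8 measured macrophage genes, 5 reached 4 log2 units in 3 or more arrays. FOLR2, a folate receptor of resident macrophages that often carry LYVE1, fell by 3.80 from S14D to S21D (SE 0.23, limma adjusted p = 1.22e-07), from 10.00 to 6.20, and its group means after that were 5.03 to 5.63, with no high level in S35D or 21W35D. The complement genes C1QA and C1QC rose by 1.61 (SE 0.38, adjusted p = 0.0142) and 1.69 (SE 0.32, adjusted p = 0.00415) over the same interval. Thus 2 of the 8 genes rose and 1 fell, against 14.9% of all probe sets in either direction. MRC1 averaged 5.82 in S14D, 5.39 in S21D, 5.32 in S28D, 6.62 in S35D, 5.89 in 21W28D and 6.93 in 21W35D. CD163 averaged, in the same order, 4.62, 5.90, 5.56, 6.72, 5.47 and 6.86, with 21W35D arrays from 4.19 to 8.39. No macrophage gene passed between S28D and the arrays labelled S35D. The centred mean of the 5 genes was -0.12 to -0.03 in S14D, -0.81 to 0.25 in S21D and S28D and -0.09 to 0.67 in the arrays labelled S35D. It was -0.39 to 0.02 in the arrays labelled 21W28D and -0.40 to 1.18 in 21W35D. The part of macrophages in the LYVE1 values was not tested. Platelet genes lay at or near the lowest value, with ITGA2B at most 2.28 and GP9 and PPBP at 2.08, and of 4 neutrophil genes none exceeded 2.37. Of 8 T cell genes with signal, whose centred mean was -2.16 to -1.15 in S14D and -0.68 to 1.69 in all later groups, 5 of 10 measured genes rose from S14D to S21D, against 14.9% of all probe sets called in either direction, while PECAM1 was lower.

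Among vessel-associated and epithelial markers, the pericyte receptor PDGFRB fell by 0.82 from S14D to S21D (SE 0.21, limma adjusted p = 0.0201), and the dim potassium channel gene KCNJ8 fell by 0.57 (SE 0.16, adjusted p = 0.0288), 2 of 4 measured pericyte genes against 14.9% of all probe sets. The centred mean of 3 pericyte genes was 0.64 to 0.96 in S14D and -0.79 to 0.54 in all other arrays, so that S14D stood highest as in PECAM1. Of 10 smooth muscle genes, ACTA2 alone passed there, lower by 0.99 (SE 0.29, adjusted p = 0.0362), against 14.9% of all probe sets. The centred mean of 9 smooth muscle genes was 0.52 to 0.83 in S14D, -0.45 to 2.62 in the arrays labelled S35D and -0.73 to 0.31 in the others. Of 10 epithelial genes 3 rose between S28D and the arrays labelled S35D, against 6.54% of all probe sets, KRT18 by 1.36 (SE 0.36, adjusted p = 0.0387), CDH17 by 1.10 (SE 0.26, adjusted p = 0.0271) and CDH1 by 0.78 (SE 0.20, adjusted p = 0.0373). The epithelial mean was 0.03 to 0.43 in S14D, 0.27 to 0.63 in the arrays labelled S35D and -0.09 to 0.56 in 21W35D, against -0.72 to 0.24 in the other groups. The interferon response genes, 6 of 13 of which rose between S14D and S21D (14.9% of all probe sets passed) and 11 between S28D and S35D (6.54% passed), were high in S35D and 21W35D (centred mean 1.50 to 2.73) but lowest in S14D (-2.50 to -1.67), where LYVE1 was high. Of 8 fibroblast genes, CXCL14 alone passed from S14D to S21D, higher by 1.52 (SE 0.48, adjusted p = 0.0476), against 14.9% of all probe sets. Neither the 3 erythrocyte genes nor the single B cell gene measured passed in any comparison. Their centred means also varied within S14D, from -0.49 to 3.54 for erythrocytes and from -6.95 to 0.87 for the B cell gene. The part of tissue composition in the LYVE1 and PECAM1 values was not tested.

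**Figure D4:**
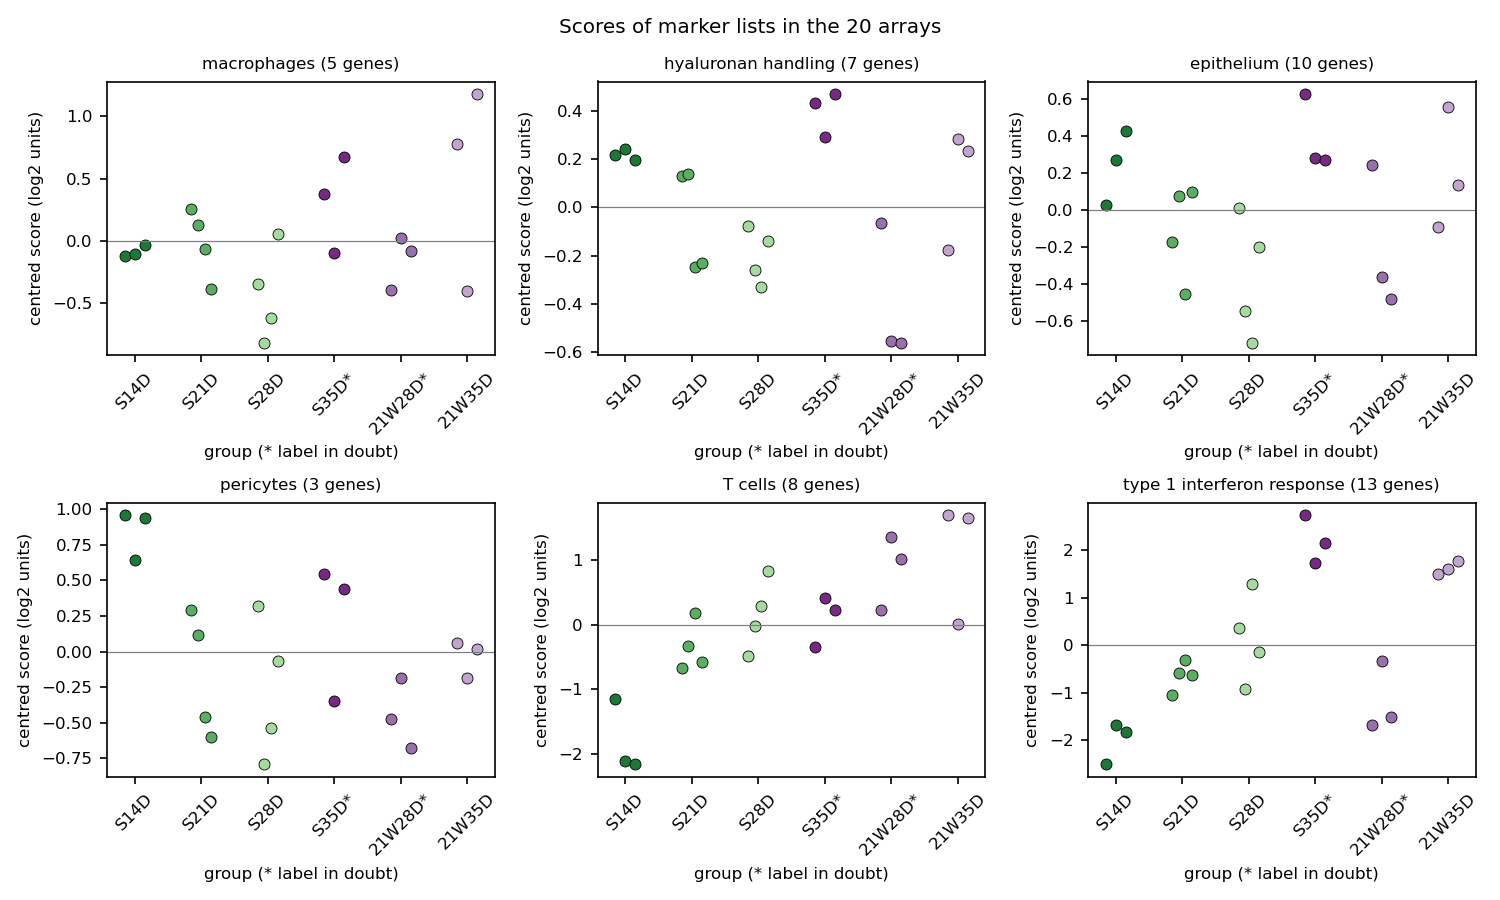
Centred mean of 6 marker lists in each array (y axis, log2 units, a different scale in each panel) by group (x axis, an asterisk marks a label in doubt). The mean of the hyaluronan genes is highest in S14D, S35D and most of 21W35D, as LYVE1 is, but not every gene in it runs so. HMMR has its lowest group mean in S14D (6.51). The pericyte mean is highest in S14D (0.64 to 0.96), as PECAM1 is, and the T cell and interferon means are lowest in S14D.

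Likeness was ranked over 5053 genes that reached 5 log2 units in 3 or more arrays, which does not ask for signal in every group. Those most like LYVE1 over the 20 arrays were SCARA5, a scavenger receptor that takes up ferritin (Pearson r = 0.91), FAM46A (0.90), the adaptor SKAP2 (0.90), the LIM-domain protein FHL2 (0.90) and the focal adhesion protein TES (0.89). SCARA5 averaged 6.38 in S14D, 3.46 in S21D, 3.65 in S28D, 5.23 in S35D, 3.34 in 21W28D and 5.70 in 21W35D. Its means were thus above 5 only in the groups where LYVE1 was high, and its lowest array was at 2.23. Those most like PECAM1 were PALMD, a palmdelphin (r = 0.84), the membrane skeleton protein EPB41L2 (0.82), the syndecan SDC2 (0.80), the lipoprotein receptor SCARB1 (0.78) and the small GTPase GEM (0.77). PALMD averaged 5.64 in S14D and between 4.11 and 4.42 in the other groups, so its mean was above 5 in S14D alone. With an r of 0.48 between them, PECAM1 ranked 1429 among the genes like LYVE1, and LYVE1 ranked 484 among those like PECAM1. These values describe 20 arrays of 6 groups and share the same arrays and normalization. Each gene was picked by its r over these arrays, so a group pattern like that of LYVE1 or PECAM1 follows from the choice. With group means subtracted, r to LYVE1 was 0.82 for SCARA5 and 0.46 to 0.57 for the other genes named with it. For the genes named with PECAM1, r within groups was 0.58 to 0.69. Between LYVE1 and PECAM1 it was 0.68 within groups, higher than over all arrays.

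**Figure D5:**
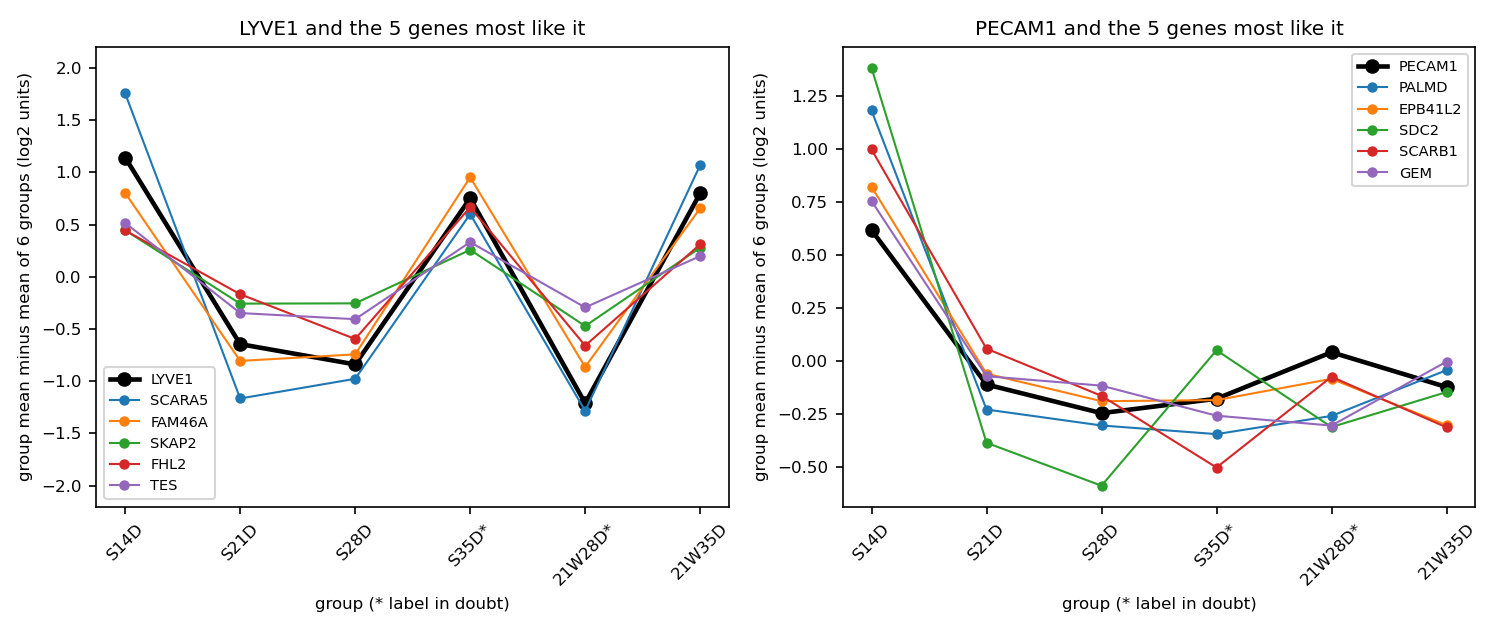
Group means minus the mean of the 6 groups (y axis, log2 units) of LYVE1 (left, black) and PECAM1 (right, black) and of the 5 genes with the highest Pearson r to each over 20 arrays (coloured lines), by group (x axis, an asterisk marks a label in doubt). The genes were picked by this r, so a shared group pattern follows from the choice. For LYVE1 that pattern is high S14D, S35D and 21W35D values, and for PECAM1 a high S14D value alone.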

How the data were processed

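Total RNA of ileal mucosa was hybridised to Affymetrix porcine arrays. The deposited table holds 1 value per probe set and array. These are log2 values, which the authors made by gcRMA normalization. GCOS 1.2 and GCRMA are the tools in the submitters' processing notes. The correction compresses low values: 41.6% of all values lie within 1 unit of the lowest, 2.08, and fold changes of dim probe sets are understated. Array medians were 5.07 to 5.34.

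Of 24123 probe sets, 124 controls were left out and 23999 tested. Symbols came from the platform annotation, with 10069 probe sets of 1 symbol, 198 of several and 13732 of none, and 9961 of the first matched a Sscrofa11.1 gene table. Samples were grouped by their deposited labels.

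LYVE1, PECAM1 and the 16 gene lists were chosen with earlier results of these data known, and so were the tests. A gene stands for its brightest probe set. Standard errors and list calls came from limma 3.58.1 (lmFit, eBayes) in R 4.3.3 over all 20 arrays with 1 mean per group, and Benjamini-Hochberg adjustment over all 23999 probe sets, called at an adjusted p under 0.05. LYVE1 and PECAM1 were left out of list counts. A list score is the mean of its genes with signal, each centred over all arrays. Likeness was ranked over probe sets of 1 symbol that reach 5 log2 units in 3 or more arrays. Named by rule were both genes with every probe set, list genes that passed (up to 10 vascular and 4 of any other list per comparison), defining endothelial markers and the 5 genes most like each. CCL21, GP9, PPBP, ITGA2B, MRC1 and CD163 were named outside this rule, after their values were seen.

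Alternatives were the mean of all probe sets, renewed quantile normalization, median centring, an intensity trend, a dim filter, only the groups compared, the methods' t-test, the replicate block, exchanged labels and each array left out. The fit was tested on simulated data. Figures were drawn with Python 3.11.15 and matplotlib 3.10.9. Replicates are separate piglets, and the limma p-values set each difference against the spread between piglets. Litter was not in the fit, so the littermates among these piglets were treated as independent.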

Additional observations from a re-analysis of the deposited data

Results flagged for a closer look

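Of the 5 probe sets, 2 dim ones of LYVE1 had an array that stood apart within a group of 4. For Ssc.17343.1.S1_at, the gap between the array farthest out and its nearest neighbour took up the share 1.0 of the range in S21D, where the other 3 arrays hold nearly the same value, and 0.899 in S28D. For Ssc.17343.1.A1_at the share was 1.0 in S21D. All these values lie between 2.08 and 2.57, next to the lowest value of the arrays, and they enter the differences of these probe sets and the mean of all LYVE1 probe sets, but not the differences of the brighter LYVE1 probe set. No group of 4 arrays had such an array in the brighter LYVE1 probe set or in either PECAM1 probe set.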

How the results depend on the processing

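Under alternatives that kept all arrays, LYVE1 and PECAM1 differences moved by less than the spread between arrays in 61 cases, moved by more than that in 6 and moved by more with a change of sign in 3, these 9 all in LYVE1. PECAM1 differences near 0 changed sign within that spread in 4 cases: 21W28D minus S21D to -0.07, 21W35D minus S35D to -0.16 and 21W35D minus 21W28D to 0.06 with both doubtful labels exchanged, and 21W35D minus S35D to -0.015 with the mean of all probe sets. The mean of all LYVE1 probe sets, of which 2 are dim, gave -1.10 for S21D minus S14D, 0.60 for S35D minus S28D, -0.20 for 21W28D minus S21D and 0.90 for 21W35D minus 21W28D. Exchanging both doubtful labels gave LYVE1 differences of -0.37 for S35D minus S28D, 1.40 for 21W28D minus S21D, 1.59 for 21W28D minus S28D, 2.01 for 21W35D minus S35D and 0.0465 for 21W35D minus 21W28D. Leaving out 1 array gave LYVE1 -2.03 to -1.49 for S21D minus S14D, -0.33 to -0.03 for S28D minus S21D, 1.38 to 1.89 for S35D minus S28D, -0.65 to -0.42 for 21W28D minus S21D, -0.53 to -0.24 for 21W28D minus S28D, -0.25 to 0.26 for 21W35D minus S35D and 1.88 to 2.09 for 21W35D minus 21W28D. For PECAM1 these ranges were, in the same order, -0.86 to -0.65, -0.25 to 0.00, -0.07 to 0.23, 0.02 to 0.36, 0.15 to 0.50, -0.11 to 0.26 and -0.38 to 0.04.

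Between S14D and S21D, no lymphatic gene and 4 vascular genes passed. With median centring 1 lymphatic gene passed. The vascular count was 7 without dim probe sets, 8 by the methods' t-test with its fold minimum and no adjustment, 2 after adjustment of that test and 2 with the compared groups alone. Leaving out 1 array gave 0 to 1 lymphatic genes (1 without S14D replicate 2) and 2 to 7 vascular genes, with 7 without S14D replicate 1 and 2 without S14D replicate 3, S21D replicate 3 or S21D replicate 4. Between S28D and S35D the vascular count of 0 became 2 without dim probe sets, 4 by the unadjusted methods' t-test, and 0 to 1 without 1 array (1 without S28D replicate 1 or S35D replicate 2). The causes were not tested. Signal limits these counts, since 14 of 28 vascular genes and 3 of 4 lymphatic genes are dim.

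Replicate numbers did not pair the arrays. Deviations from group means correlated above 0.1 in 18 and below -0.1 in 19 of 46 pairs of arrays that share a number, and 6 of 20 arrays correlated best with their own number. With the replicate block, 3 vascular genes passed between S14D and S21D, and the LYVE1 difference was -1.77.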
